A study of Mus musculus with 6 samples.

Results

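The tetraspanins are a family of membrane proteins that cross the membrane 4 times and were followed here in megakaryocyte-erythroid progenitors. Members were taken by gene symbol, as every measured gene named Tspan with a number together with Cd9, Cd37, Cd53, Cd63, Cd81, Cd82, Cd151, Upk1a, Upk1b, Prph2 and Rom1. This gave 30 genes of 19661 tested, each with 1 probe set. These progenitors are marrow cells from which erythrocytes and platelets develop. They were sorted from bone marrow carrying the knock-in allele of Fog1 on both chromosomes (Fog1ki/ki, 3 arrays) and from bone marrow of Fog1+/+ mice (3 arrays), all of strain B6.129. The gate was lineage-negative, Kit-positive, Sca1-negative, CD34-negative and low for FcγRII/III. The labels give no age or sex, nor the number of animals behind an array, nor the nature of the knock-in allele. As background, the published Fog1 knock-in encodes a protein unable to bind the NuRD chromatin complex. Zfpm1 is the gene for FOG1, which works together with GATA1, a transcription factor of the erythroid and megakaryocyte lineages. The arrays are described as biological replicates, and where they did not come from separate animals the p-values measure only the spread between arrays, which may be technical.

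Tetraspanins gather integrins, receptors, proteases and one another into membrane domains, and several of them steer their partners through endosomes to the cell surface. Cd63 is the best known member of lysosomes and secretory granules, and in blood it marks the granule membranes of platelets, mast cells and basophils. Cd9, Cd37, Cd53, Cd81, Cd82, Cd151 and Tspan32 are studied mainly on leukocytes and platelets. The TspanC8 group carries the protease ADAM10, while Prph2 and Rom1 shape photoreceptor discs and Upk1a and Upk1b coat the urothelium.

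Of the 30 members, 2 rose and 1 fell in Fog1ki/ki (limma, Benjamini-Hochberg adjusted p under 0.05 over all genes). Cd63 and Tspan12 were higher and Cd82 was lower. That is 3 of 30 genes, where 0.773% of all genes tested were called in either direction, 0.376% as higher and 0.397% as lower. The family's share is a description and not a test. At an unadjusted limma p under 0.05 the members counted 4 higher and 3 lower, against 9.57% of all genes in either direction, 4.99% higher and 4.58% lower.

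The upstream sequences of the 3 called genes are shown because GATA1, the partner of FOG1, binds the letters GATA. The sequences are the 250 bases before the start of the transcript, from RefSeq on GRCm38.p6, written 5′ to 3′ on the strand of the gene, and capitals mark GATA or its reverse complement TATC. The Cd63 window is chr10:128909095-128909344 on the plus strand, that of Tspan12 is chr6:21852534-21852783 on the minus strand, and that of Cd82 is chr2:93462951-93463200 on the minus strand. Cd82 has 4 starts in this table, and the one farthest upstream is printed.
Cd63: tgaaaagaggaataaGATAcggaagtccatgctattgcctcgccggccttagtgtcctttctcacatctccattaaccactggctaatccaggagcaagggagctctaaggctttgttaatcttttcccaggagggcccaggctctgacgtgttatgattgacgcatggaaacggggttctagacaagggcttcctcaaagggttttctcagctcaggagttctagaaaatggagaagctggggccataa
Tspan12: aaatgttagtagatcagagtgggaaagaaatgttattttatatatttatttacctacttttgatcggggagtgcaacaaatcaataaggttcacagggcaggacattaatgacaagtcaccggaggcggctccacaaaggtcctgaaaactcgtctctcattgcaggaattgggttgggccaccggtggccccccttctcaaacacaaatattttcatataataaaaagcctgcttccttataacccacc
Cd82: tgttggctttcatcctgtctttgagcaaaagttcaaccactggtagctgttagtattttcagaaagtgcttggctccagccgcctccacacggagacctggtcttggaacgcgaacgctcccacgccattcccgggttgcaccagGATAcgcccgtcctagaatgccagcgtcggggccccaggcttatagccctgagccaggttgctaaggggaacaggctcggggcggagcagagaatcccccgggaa

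The Cd63 window holds 1 match, at base -235 from the start, the printed Cd82 window holds 1, at base -105, and the Tspan12 window holds none. Of 32851 such windows in the table, 53.6% hold GATA on either strand. Among the family, 28 genes have 38 windows, of which 19 hold it. The longer forms AGATAA and TGATAA, which contain GATA, were searched on both strands and occur in none of the 3 printed windows, while 9.99% and 7.94% of all windows hold them. These are matches of letters, and no binding was measured here.

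Zfpm1, the targeted gene, measured 7.65, 7.50 and 7.73 on the log2 scale in Fog1ki/ki and 7.57, 7.37 and 7.80 in Fog1+/+. Its transcript showed no detectable difference (0.05, SE 0.13, limma adjusted p = 0.948), which checks no genotype label, since the nature of the allele is not labelled. Array medians lay between 6.02 and 6.15. None of 11 progenitor and gate markers was called in limma, and Klf1 lay between 8.23 and 8.37 over all arrays. Gata1 measured 8.47, 8.09 and 8.24 in Fog1ki/ki and 8.54, 8.56 and 8.57 in Fog1+/+, lower in every Fog1ki/ki array (difference -0.29, limma adjusted p = 0.435). Genotypes did not overlap in 5 of the 11 (45.5%, against 14.8% of all genes). Nfe2 (0.33) and Tal1 (0.14) were higher and Slamf1 (-0.49), Kit (-0.38) and Gata1 lower. Cd34, which the gate leaves out, lay between 4.34 and 4.56, below the lower quartiles of all arrays (4.81 to 4.92). Replicate 3 of each genotype had low Y-linked genes and high Xist (11.03 in Fog1ki/ki and 11.02 in Fog1+/+). Fog1ki/ki replicate 2 had Xist at 9.13 together with Y-linked values as high as in replicate 1.

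Cd63 showed the widest difference of the family. It measured 11.81, 12.01 and 11.52 in the Fog1ki/ki arrays and 10.84, 9.83 and 10.46 in the Fog1+/+ arrays on the log2 scale. The genotypes did not overlap, and the Fog1+/+ arrays lay far apart, with the largest SD of the 30 genes in that genotype (0.51). The mean was 11.78 ± 0.25 in Fog1ki/ki against 10.38 ± 0.51 in Fog1+/+ (SD, n = 3 each). The difference of 1.40 (SE 0.23, 95% interval 0.87 to 1.94, limma adjusted p = 0.0355) is 2.65-fold, the 21st largest increase of the 19661 genes. The call was lost without Fog1ki/ki replicate 1, 2 or 3 (limma adjusted p = 0.0959, 0.151 and 0.0618) and without Fog1+/+ replicate 3 (0.135). The difference itself stayed between 1.13 and 1.64 in all 17 alternative settings. With a term for the arrays low in Y-linked genes it had an adjusted p of 0.0553, and without those arrays one of 0.251.

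Markers of other cells that carry CD63 were measured beside it. Over all genes 0.376% were called higher and 0.397% lower, and of 13 mast cell markers 2 rose in Fog1ki/ki and none fell in limma. They were Ms4a2, a chain of the IgE receptor, which measured 9.15, 8.64 and 7.80 in Fog1ki/ki against 4.74, 4.80 and 4.67 in Fog1+/+, and the transcription factor Gata2. Fcer1a, another chain of that receptor, measured 7.46, 6.93 and 5.24 in Fog1ki/ki against 4.64, 4.61 and 4.65 in Fog1+/+. It was the 7th largest increase of all genes and did not pass (difference 1.91, SE 0.46, limma adjusted p = 0.147). Gata2 measured 8.72, 8.05 and 8.39 in Fog1ki/ki and 7.16, 7.21 and 7.37 in Fog1+/+, above the array medians in both genotypes. Before adjustment 5 mast cell markers were higher and 1, Kit, was lower (p under 0.05), against 4.99% and 4.58% of all genes. Of the 13, 12 lay above 0, as did 56.3% of all genes. The 13 values summed to between 78.8 and 84.2 in Fog1ki/ki arrays and to between 72.7 and 73.0 in Fog1+/+ arrays. Ms4a2, Fcer1a and Gata2 had the largest differences of this list (3.79, 1.91 and 1.14). Cpa3, Slc18a2, Cma1, Mcpt4 and Mitf differed by 0.53, 0.45, 0.21, 0.21 and 0.14 and were not called. Tpsb2, Tpsab1, Hdc and Mrgprb2 differed by only 0.07, 0.13, 0.06 and 0.06 and were not called. Genotypes did not overlap in 6 of the 13, 5 higher and 1 lower (46.2%, against 14.8% of all genes). The mast cell sum was highest in Fog1ki/ki replicate 1 (84.2), then replicate 2 (80.7) and replicate 3 (78.8). Cd63 was highest in replicate 2 and, like the sum, lowest in replicate 3. The means of the mast cell proteases Cpa3 and Mcpt4 and of the receptor Mrgprb2 lay below the lower quartiles of all arrays. None of 8 basophil and eosinophil markers was called, with sums from 41.2 to 42.3 in Fog1ki/ki and from 39.3 to 39.6 in Fog1+/+, and 3 were higher at an unadjusted limma p under 0.05. The granule protein Prg2 had the smallest p of that list (difference 0.83, limma adjusted p = 0.177). Mcpt8 had the largest difference of that list (1.03, limma adjusted p = 0.510). It measured 7.40, 5.50 and 5.44 in Fog1ki/ki and 5.10, 4.99 and 5.17 in Fog1+/+. Genotypes did not overlap in 4 of these 8, all higher (50%, against 14.8% of all genes), while 3 of the 8 lay below 0. Among 7 megakaryocyte and platelet markers none was called, 2 were higher at that unadjusted p, and the platelet chemokine Pf4 differed by 0.97 (limma adjusted p = 0.266). Their sums were 49.15 to 50.40 in Fog1ki/ki against 47.23 to 48.38 in Fog1+/+. Sums also lay apart for B lymphoid markers (37.73 to 38.46 against 36.76 to 37.53) and non-haematopoietic markers (45.27 to 45.59 against 44.41 to 44.66). Those of progenitor, erythroid, neutrophil, monocyte, and T and NK markers overlapped. How far the sort left out mast cells, basophils, eosinophils and platelets was not tested. What part these cells have in the Cd63 difference was not tested, and in sorted bulk RNA more cells of a type and more RNA per cell cannot be told apart.

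**Figure D1:**
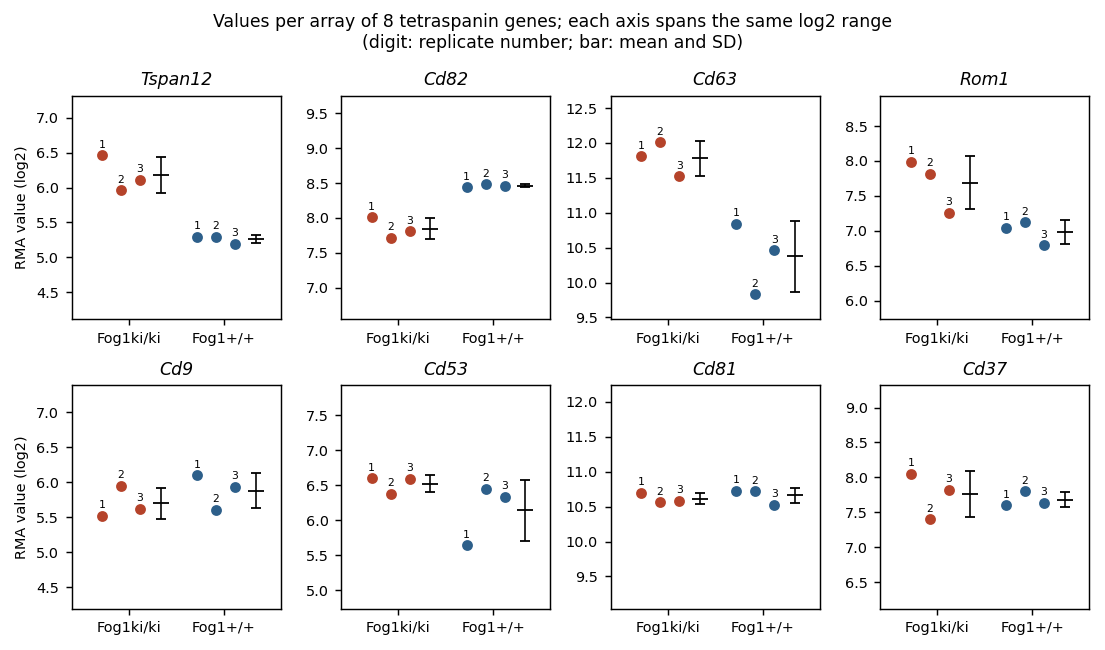
Values of 8 tetraspanin genes in each array, in RMA log2 units, with Fog1ki/ki in red on the left and Fog1+/+ in blue on the right of each panel. Digits give the replicate number and bars the mean and SD (n = 3). The genotypes are apart in Tspan12, Cd82, Cd63 and Rom1 and overlap in Cd9, Cd53, Cd81 and Cd37.

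Tspan12 is best known from the retina, where it strengthens signalling from Norrin through the receptor Frizzled-4. It measured 6.46, 5.96 and 6.11 in Fog1ki/ki and 5.29, 5.29 and 5.19 in Fog1+/+. The Fog1+/+ arrays lay close together, a little above the lower quartiles of the arrays, and every Fog1ki/ki array lay above them. The difference of 0.92 (SE 0.13, 95% interval 0.62 to 1.22, limma adjusted p = 0.0169) is 1.89-fold, and it ranked 76th of all genes by p. It was not called without Fog1ki/ki replicate 3 (limma adjusted p = 0.0501) or without Fog1+/+ replicate 1, 2 or 3 (0.0794, 0.0625 and 0.106), with differences between 0.78 and 1.03 in all 17 settings. Tspan12 was called with a term for the arrays low in Y-linked genes (0.0298) and not without those arrays (0.252).

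Cd82, also called Kai1, restrains cell movement and is known from quiescent blood stem cells. It measured 8.01, 7.72 and 7.81 in Fog1ki/ki and 8.44, 8.48 and 8.46 in Fog1+/+. All Fog1ki/ki arrays lay below all Fog1+/+ arrays, which had the smallest SD of the family in that genotype (0.020). Cd82 fell by 0.61 on the log2 scale (SE 0.10, 95% interval -0.84 to -0.38, limma adjusted p = 0.0329), and it was 1.53-fold lower. It was called without Fog1ki/ki replicate 1 (limma adjusted p = 0.0193). The call was lost without Fog1ki/ki replicate 2 or 3 (0.118 and 0.101) and without Fog1+/+ replicate 1, 2 or 3 (0.132, 0.132 and 0.155). With a term for the arrays low in Y-linked genes the adjusted p was 0.0585, and without those arrays it was 0.361. The difference stayed between -0.70 and -0.55 in all 17 settings.

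The other leukocyte tetraspanins did not pass the test. Of the 8 genes of this list, 1 rose, 1 fell and 6 were not called, with a median log2 difference of -0.04. Cd81, which joins the B cell coreceptor, measured 10.70, 10.56 and 10.58 in Fog1ki/ki and 10.73, 10.72 and 10.53 in Fog1+/+. The genotypes overlapped, and the 95% interval of the Cd81 difference ran from -0.27 to 0.17. Cd9, a tetraspanin of platelets and of the egg, measured 5.52, 5.95 and 5.62 in Fog1ki/ki and 6.10, 5.61 and 5.93 in Fog1+/+. Here too the arrays were mixed (difference -0.18, 95% interval -0.53 to 0.17).

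Cd53, a tetraspanin of leukocytes, measured 6.60, 6.38 and 6.59 in Fog1ki/ki and 5.64, 6.45 and 6.33 in Fog1+/+. Fog1+/+ replicate 1 stood low, and the difference of 0.38 did not pass (SE 0.19, limma adjusted p = 0.598). It was 0.13 without that array. Cd37, likewise of leukocytes, had a log2 difference of 0.08 (95% interval -0.28 to 0.43). Cd151, a partner of laminin-binding integrins, had one of -0.06 (-0.33 to 0.21). Tspan32, a tetraspanin of blood cells that acts on the platelet integrin, had one of -0.02 (-0.43 to 0.38). The sign turned in 3 of the 17 settings for Tspan32, in 2 for Cd37, and in 1 each for Cd151 and Cd81.

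**Figure D2:**
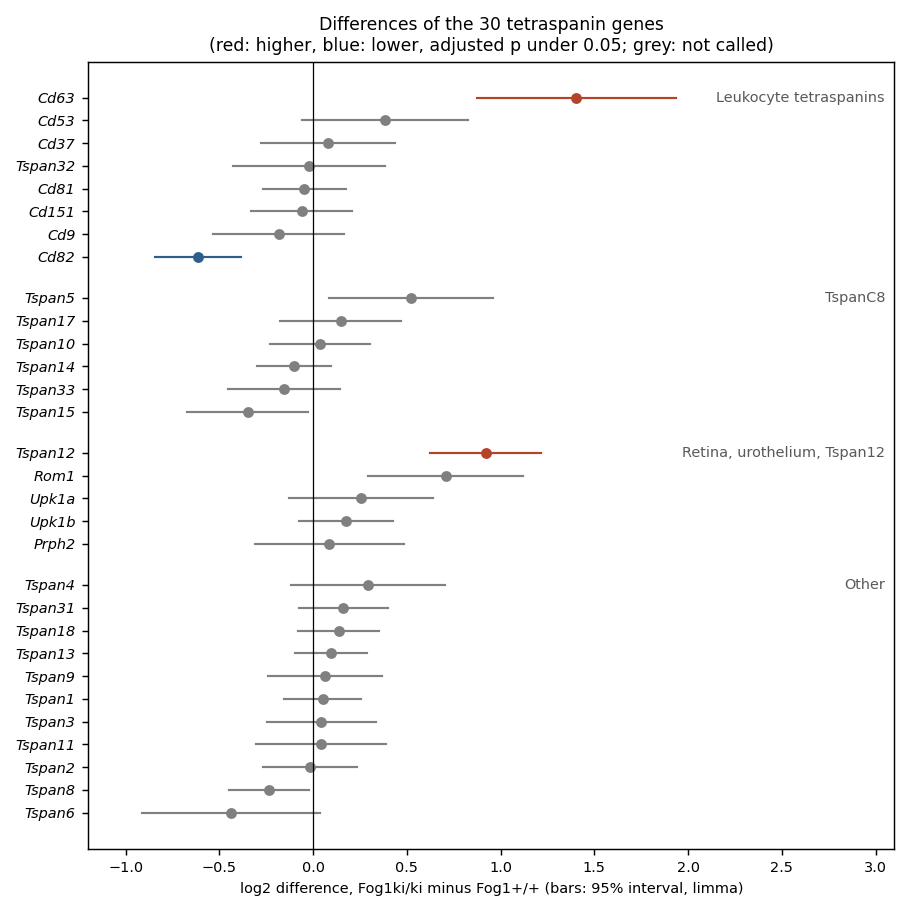
Log2 differences, Fog1ki/ki minus Fog1+/+, of the 30 tetraspanin genes with 95% intervals from limma, grouped by role. Cd63 and Tspan12 in red were called higher and Cd82 in blue was called lower, while Rom1, Tspan5, Tspan8 and Tspan15 have intervals that leave out 0 but were not called after adjustment.

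None of the 6 TspanC8 genes, which bring ADAM10 out of the endoplasmic reticulum and steer its choice of substrates, was called in limma. Before adjustment 1 was higher and 1 was lower (p under 0.05), against 4.99% and 4.58% of all genes. Tspan5 measured 8.01, 7.94 and 7.48 in Fog1ki/ki and 7.31, 6.93 and 7.62 in Fog1+/+. Its groups overlapped through replicate 3 of each genotype (difference 0.52, SE 0.19, limma adjusted p = 0.403). The Tspan5 difference was 0.345 without Fog1+/+ replicate 2 and 0.855 without both replicate 3 arrays. Tspan15 measured 5.78, 5.39 and 5.24 in Fog1ki/ki and 5.84, 5.91 and 5.71 in Fog1+/+. It had lower values in Fog1ki/ki, again with overlap (-0.35, SE 0.14, limma adjusted p = 0.469). Tspan33, known as Penumbra from erythroid progenitors, had a log2 difference of -0.16 (95% interval -0.46 to 0.14). Tspan14, the TspanC8 gene of platelets, had one of -0.10 (-0.30 to 0.09), Tspan17 one of 0.15 and Tspan10 one of 0.04. Adam10 itself had one of -0.22 (SE 0.13, limma adjusted p = 0.655).

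The 5 genes of the retina and urothelium list, to which Tspan12 was added, all had differences above 0 (median 0.25), as did 56.3% of all genes. Tspan12 alone was called, where 0.773% of all genes were. The list was drawn up with earlier results of these data known. Rom1 measured 7.99, 7.82 and 7.26 in Fog1ki/ki and 7.04, 7.12 and 6.79 in Fog1+/+. The groups did not overlap, and replicate 3 was the lowest array of each genotype. The difference of 0.71 (SE 0.18, 95% interval 0.29 to 1.12) did not pass (limma adjusted p = 0.189). Rom1 was called with a term for the arrays low in Y-linked genes (0.0439) and without Fog1ki/ki replicate 3 (0.0295). Its partner in the photoreceptor disc, Prph2, had a difference of 0.09 (95% interval -0.31 to 0.48). Upk1a and Upk1b, which form the plaques of the urothelium, had differences of 0.25 and 0.18 and were not called.

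Of the 11 other numbered tetraspanins none was called in limma. Tspan8, described from epithelial tumours, was the one at an unadjusted p under 0.05, as were 9.57% of all genes. It measured 11.15, 11.30 and 11.09 in Fog1ki/ki and 11.45, 11.36 and 11.43 in Fog1+/+. The groups did not overlap, by a narrow margin (difference -0.23, SE 0.09, limma adjusted p = 0.468). Tspan6, an X-linked member, measured 6.58, 7.06 and 6.29 in Fog1ki/ki and 6.95, 6.86 and 7.43 in Fog1+/+, with the largest Fog1ki/ki SD of the family (0.39). It overlapped between genotypes (difference -0.44, limma adjusted p = 0.574). The Tspan6 difference was -0.26 without replicate 3 of either genotype alone and -0.085 without both, the arrays low in Y-linked genes. Tspan13 measured 10.54, 10.49 and 10.57 in Fog1ki/ki and 10.40, 10.44 and 10.47 in Fog1+/+. It did not overlap but differed by only 0.10 (95% interval -0.10 to 0.29). Tspan31 had a difference of 0.16 (limma adjusted p = 0.697). Tspan4 had one of 0.29 and Tspan18 one of 0.14, and Tspan1, Tspan2, Tspan3, Tspan9 and Tspan11 lay between -0.02 and 0.06. Tspan1 and Tspan2 were dim, with means below the lower quartiles of all arrays.

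Across the family, 19 genes lay above 0 and 11 below, where 56.3% of all genes lay above 0. The median log2 difference was 0.06 over the family and 0.02 over all genes. The median size of a difference, whatever its sign, was 0.15 in the family and 0.10 over all genes. Genotypes did not overlap in 7 members, 4 higher and 3 lower, which is 23.3% against 14.8% of all genes (8.31% higher and 6.53% lower). The 95% interval lay within 2-fold either way in 27 members, all but Cd63, Tspan12 and Rom1, and within 1.5-fold in 20.

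The members lie on 15 chromosomes. Of the 59 genes next to a member in the order of tested genes, some of them members themselves, 1 was called, where 0.773% of all genes were. That one was Cd82, itself a member, beside Tspan18. These neighbours on chromosome 2 differed in sign, at -0.61 for Cd82 and 0.14 for Tspan18. In the other pairs of nearby members the log2 differences were 0.29 for Tspan4 and -0.06 for Cd151, 0.06 for Tspan9 and 0.04 for Tspan11, and -0.05 for Cd81 and -0.02 for Tspan32. The genes on either side of Cd63, Gdf11 and Rdh5, had differences of -0.12 and 0.14. Those beside Tspan12, Kcnd2 and Ing3, had -0.13 and -0.05, and none of these 4 was called. Eml3, next to Rom1, had a difference of 0.43 (SE 0.11, limma adjusted p = 0.159).

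**Figure D3:**
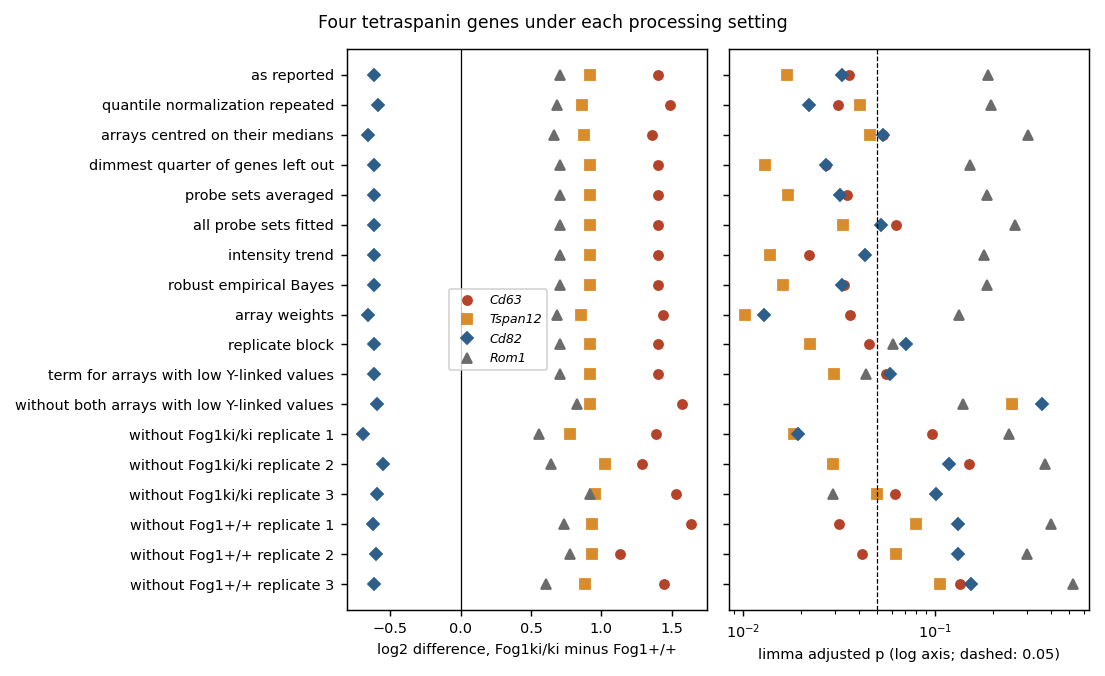
Log2 difference, Fog1ki/ki minus Fog1+/+ (left), and limma adjusted p on a log axis (right) of Cd63, Tspan12, Cd82 and Rom1 as reported and under each of 17 alternative settings. No sign changes, while the adjusted p of each gene lies on both sides of 0.05, drawn as a dashed line.

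The proteins that tetraspanins hold together were then examined. Of 19 measured partner genes none was called in limma, as in each of the 17 alternative settings. Before adjustment 1 partner was higher and 3 were lower (limma p under 0.05), against 4.99% and 4.58% of all genes. Their median log2 difference was -0.06. Genotypes did not overlap in 5 of the 19, 1 higher and 4 lower (26.3%, against 14.8% of all genes). Kit, the stem cell factor receptor and also part of the sorting gate, measured 10.05, 9.72 and 9.96 in Fog1ki/ki and 10.26, 10.30 and 10.30 in Fog1+/+. It did not overlap and did not pass (difference -0.38, SE 0.11, limma adjusted p = 0.232). The hyaluronan receptor Cd44 had a difference of -0.40, the protease Adam17 one of -0.32 and the platelet integrin chain Itga2b one of 0.31, with limma adjusted p from 0.332 to 0.403. The beta chain Itgb1 had one of 0.12, and Igsf8 and Ptgfrn, immunoglobulin proteins that bind Cd9 and Cd81, had 0.11 and 0.10.

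Genes of multivesicular bodies, exosomes and secretory granules, the compartments where Cd63 resides, were not called either (0 of 19 in limma, also in each of the 17 settings). Before adjustment 1 was higher and 3 were lower (p under 0.05), against 4.99% and 4.58% of all genes, and the median log2 difference was -0.03. Genotypes did not overlap in 4 of these 19, 1 higher and 3 lower (21.1%, against 14.8% of all genes). The lysosomal membrane protein Lamp2 measured 9.23, 9.08 and 8.94 in Fog1ki/ki and 9.49, 9.36 and 9.43 in Fog1+/+. It lay lower without overlap and did not pass (difference -0.34, SE 0.10, limma adjusted p = 0.276), and Lamp1 had a difference of -0.18. Vamp7 had one of -0.52 and Vps4a one of -0.31, both with overlap between genotypes (limma adjusted p = 0.509 and 0.468). Rab3d, a GTPase of secretory granules, had one of 0.29 (limma adjusted p = 0.313), and Rab27b, which docks granules, one of 0.28 (0.531). Sdcbp, the syntenin that binds the tail of Cd63, had one of -0.15 (95% interval -0.35 to 0.05).

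**Figure D4:**
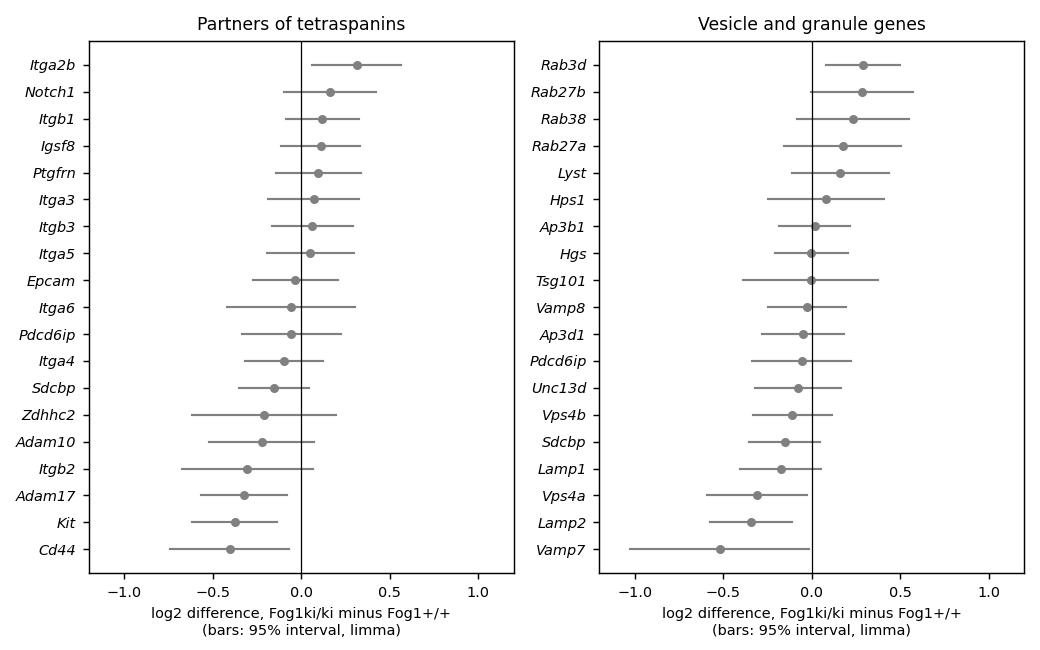
Log2 differences, Fog1ki/ki minus Fog1+/+, with 95% intervals from limma for 19 partners of tetraspanins (left) and 19 vesicle and granule genes (right). None was called, and the differences ran from -0.40 to 0.31 among the partners and from -0.52 to 0.29 among the vesicle and granule genes.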

How the data were processed

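RNA of sorted progenitors was amplified, labelled with biotin and hybridised to 1-colour arrays, per the labels' protocols. The authors' deposited values are log2 intensities by RMA, per the submitters' processing notes for the method and per the range of values for the scale. The version of RMA is not given in the sources used here. RMA compresses differences of dim probe sets, and the number of arrays limits the precision.

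Gene symbols came from GEO's annotation of the platform and may be outdated. Of 25668 probe sets, 20777 had 1 gene, 232 several and 4659 none, and the brightest probe set stood for each of 564 genes with several. All 19661 genes were fitted with limma 3.58.1 in R 4.3.3 (genotype as the only term, two-sided) and called at a Benjamini-Hochberg adjusted p under 0.05. With 3 arrays a side, exact permutation p-values have a minimum of 0.1 and were not used. Gene order and upstream sequences came from RefSeq tables on GRCm38.p6, without coordinates of the array. The scripts were tested on simulated data.

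Members and lists were chosen with earlier results of these data known. Named are members with an unadjusted p under 0.05, the 4 largest differences each way, the 6 brightest and the leukocyte list, and of the partner and vesicle lists the lowest-p gene. Further names were chosen after their values were seen. Alternatives were other scalings, filters, variance models, thresholds, a replicate block and arrays left out. Tables used Python 3.11.15 and pandas 2.3.3, and figures matplotlib 3.10.9.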

Additional observations from a re-analysis of the deposited data

How the results depend on the processing

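Under 17 alternative settings, thresholds apart, Cd63, Tspan12 and Cd82 kept their direction, and Rom1 was the only further member called under any of them. Members called higher numbered 2 as reported, 1 with arrays centred on their medians (Tspan12), 1 with all probe sets fitted (Tspan12), 0 without both arrays low in Y-linked genes and 0 at an adjusted p under 0.01. Members called lower numbered 1 as reported and 0 under each of these settings, with the replicate block and with the term for arrays low in Y-linked genes. With each array left out in turn, 0 to 1 members were higher and 0 to 1 lower, and between 60 and 134 of all genes were called, against 152 over all arrays. The 2 called higher with the term for arrays low in Y-linked genes were Rom1 and Tspan12, and without Fog1ki/ki replicate 3 the one called was Rom1. Over all genes 24 were called without both arrays low in Y-linked genes and 55 at an adjusted p under 0.01. The family median stayed between 0.01 and 0.09. Same-numbered arrays of both genotypes had deviations that correlated at 0.07, -0.01 and 0.13 over genes, and 4 of 6 arrays correlated best with their own number. Replicate 3 of both genotypes shares low Y-linked genes, which enter these deviations, and whether equal numbers mark pairs was not tested. The replicate block gave 133 called genes, with Cd63 and Tspan12 among them and Cd82 at an adjusted p of 0.0710. Some of these fits hold fewer arrays or more features, and the causes of the changes were not tested.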
